A study of Homo sapiens with 2 samples.

Results

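The epithelial splicing factors ESRP1, ESRP2 and RBM47, the grainyhead-like factors GRHL1, GRHL2 and GRHL3, the zinc finger repressors OVOL1 and OVOL2, and the ETS factors ELF3 and EHF were compared between 2 substates of H9, a line of human embryonic stem cells. The members were the probes whose RefSeq accession belonged to one of these 10 genes. They came to 13 of the 58201 non-control probes and covered 9 of the 10 genes, out of 22439 genes that could be named on the array. No probe carried an accession of OVOL2, which was not analysed here.

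Each substate was represented by 1 single-colour Agilent array. Substate 1 RNA came from cells at passage 35 and substate 2 RNA from cells at passage 50. The study describes both substates in cells grown on Matrigel, a preparation of extracellular matrix proteins, in TeSR-E8 medium without feeder cells. It moved cells from vitronectin to Matrigel at passage 35, and also kept cells on vitronectin past that passage. Substate 1 RNA came from the passage of this move, so the matrix may also have differed between the arrays. In the study, substate 1 colonies were compact, stained strongly for the R-10G keratan sulphate epitope and hardly for vimentin, whereas substate 2 colonies had wide gaps between cells, weak R-10G and strong vimentin. How the cells of each substate were set apart before RNA extraction is not given in the sources used here. All material is from this single cell line, so passage, matrix, time on Matrigel and substate cannot be told apart. With 1 array per substate no test was possible and no p-value is given. In these bulk samples, fewer cells expressing a gene and less RNA per cell also cannot be told apart.

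These genes are regarded as gatekeepers of the epithelial state. ESRP1 and ESRP2 bind RNA and direct the epithelial choice of exons in many transcripts, and RBM47 is an RNA-binding protein that also acts on splicing and RNA stability. The GRHL factors activate genes of cell junctions, the OVOL factors repress mesenchymal genes such as ZEB1, and ELF3 and EHF belong to the epithelium-specific branch of the ETS family. Primed human pluripotent stem cells grow as an epithelium, and the ZEB and SNAI repressors, which bind E-boxes, act against this programme during an epithelial-to-mesenchymal transition.

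On the arrays, 57.4% of the spots for substate 1 and 54.7% for substate 2 were well above background, a call made by the scanner software, and no spot was saturated. Of the 5 pluripotent stem cell markers with a probe, all were well above background on both arrays and none differed by 2-fold, with differences (substate 2 minus substate 1, log2 scale) from 0.07 to 0.42 around a median of 0.26. Markers of other cells were mostly near background. On both arrays 1 of 7 neural ectoderm, 2 of 9 trophectoderm or amnion, 1 of 5 surface ectoderm, 2 of 6 definitive endoderm, 1 of 6 mesoderm and 3 of 6 fibroblast markers were measured. These were, with their differences, NES 0.38, KRT7 0.16, VTCN1 -0.37, KRT15 0.21 and FOXA2 0.77. The rest were CXCR4 -0.15, PDGFRA 0.65, COL1A1 -0.49, COL1A2 -0.50 and THY1 -0.11. THY1 was bright, reading 7.26 in substate 1 and 7.15 in substate 2. Well above background on neither array were, among others, PAX6, TP63, KRT5, KRT14, CDX2, GATA3, SOX17 and TBXT. SOX1 (neural ectoderm), read on the substate 2 array alone, was at least 1.71-fold higher there. GATA2 and GATA4, read on the substate 1 array alone, were at least 1.04-fold and 1.03-fold lower in substate 2. The only markers past 2-fold were read on the substate 2 array alone and were higher there, POU3F2 (neural ectoderm) by at least 13.3-fold, MESP1 (mesoderm) by at least 2.21-fold and CGA (trophectoderm) by at least 2.12-fold. Their part in the results was not tested.

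The main pattern was an uneven lowering of these regulators in substate 2. OVOL1 was 2.64-fold lower and GRHL2 2.18-fold lower in substate 2, ESRP2 and ESRP1 were lower by 1.63-fold and 1.47-fold, and GRHL1 by 1.33-fold. GRHL3, RBM47 and ELF3 differed by less than the error given by the scanner software, and EHF was near background on both arrays. Of the 8 members measured on both arrays, 2 were 2-fold or more lower and 0 were 2-fold or more higher, where over all 16965 named genes with a signal 1.3% were lower and 1.41% higher by that much. Of the same 8 members, 6 had a difference below 0, against 40.2% of the 16001 genes measured on both arrays. Their median difference was -0.49, beside 0.08 for all measured genes. This background depended on signal. From the dimmest to the brightest of 4 equal bins of measured probes, the median difference was -0.02, -0.01, 0.06 and 0.16. The SD of the difference fell from 0.48 to 0.29, so differences spread more widely among dim probes. Shares within the bins were not computed, and the bins of the member probes are given below. Both 2-fold calls ended under normexp background correction, which left differences of -0.84 for OVOL1 and -0.85 for GRHL2.

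**Figure D1:**
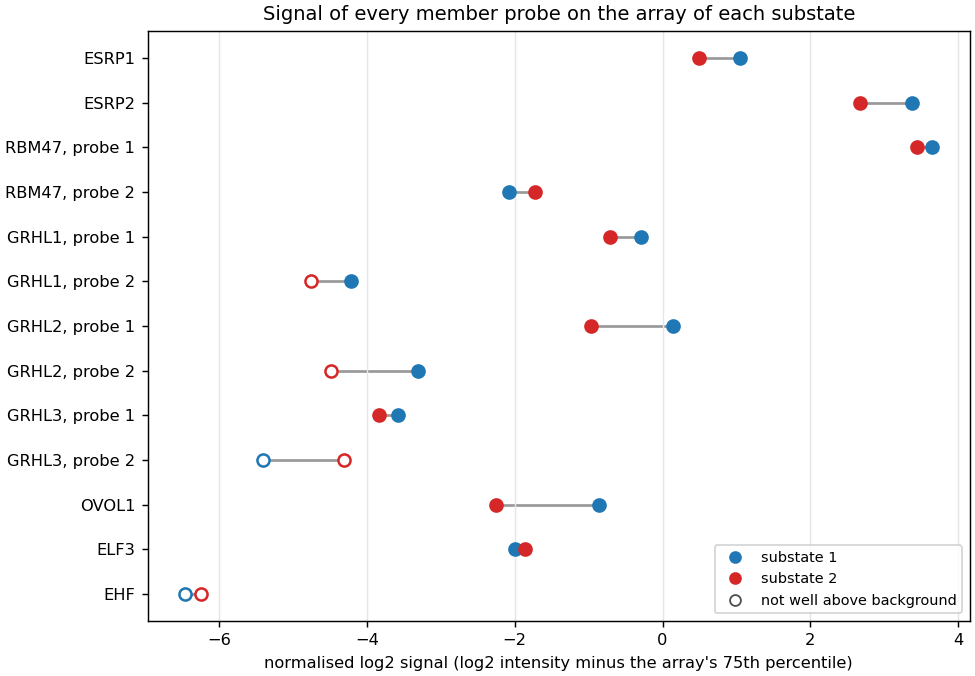
Normalised log2 signal (x axis, log2 intensity minus the 75th percentile of the array) of each of the 13 member probes (y axis) on the substate 1 array (blue) and the substate 2 array (red), with open symbols for signals not well above background. OVOL1 and both GRHL2 probes show the widest gaps with substate 2 on the left, and levels are to be compared along a line, not between probes.

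Error was taken from the scanner software, which gives an error for the intensity of each spot, and is written as ± for the difference of both arrays. It is an estimate by the software for the reading of a spot, and leaves out variation of the culture, the RNA preparation and the dye reaction. It was 0.20 alike for ESRP1, for ESRP2 with its 10 spots and for the brighter RBM47 probe. For a probe with repeated spots the mean of the spot errors was taken, so the error does not shrink with the number of spots. It is not a spread measured over repeated spots. A second measure came from probes printed 10 times, whose spots gave a median SD of 0.07 for the difference of single spots. Most of these were bright. When all measured probes were divided into 4 equal bins by signal, this median SD was 0.24 in the dimmest bin (7 repeated probes), 0.14 in the second (11), 0.08 in the third (61) and 0.07 in the brightest (212). The measured GRHL3 probe lay in the dimmest bin, those of OVOL1, GRHL1, ELF3 and the brighter one of GRHL2 in the second, that of ESRP1 in the third and that of ESRP2 in the brightest.

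Among the splicing factors, ESRP2 had the best measured value, as its probe was printed 10 times on each array. The processed intensity of its spots ran from 3060 through a median of 3247 to 3434 on the substate 1 array. On the substate 2 array it ran from 1699 through 1736 to 1800. The spots of both arrays did not overlap, nor did they after scaling (lowest log2 signal 3.29 in substate 1, highest 2.71 in substate 2). How many of the other probes printed 10 times were also apart was not computed. The spots of an array share 1 RNA sample and are not replicates of the substate. After scaling, the log2 signal was 3.38 ± 0.05 (SD, 10 spots) in substate 1 and 2.66 ± 0.03 (SD, 10 spots) in substate 2. With 1 outlier spot left out of the latter, the difference was -0.71 ± 0.20, and between spots at the same position on both arrays it ranged from -0.77 to -0.58. Of the 29883 probes measured on both arrays, 3.92% differed by as much or more in this direction.

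**Figure D2:**
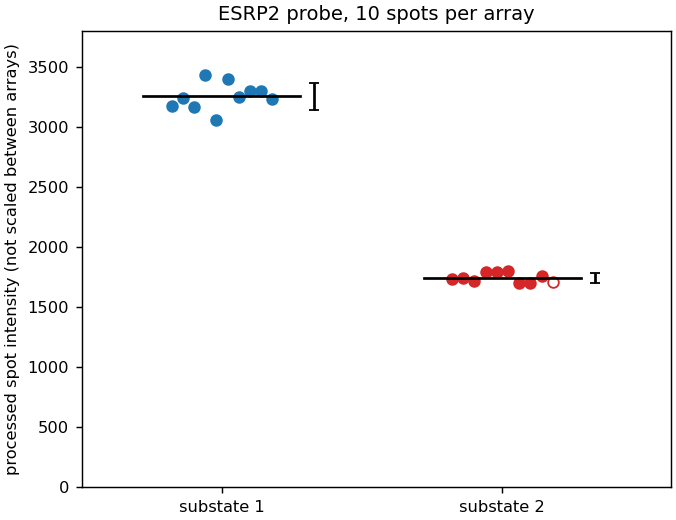
Processed intensity (y axis, starting at 0, not scaled between arrays) of the 10 ESRP2 spots on the array of each substate (x axis), with the mean as a line, the SD over the 10 spots as a bar, and the spot marked as an outlier as an open symbol. The substate 2 spots lie between 1699 and 1800 and those of substate 1 between 3060 and 3434.

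ESRP1, the paralogue of ESRP2, had 1 probe with an intensity of 647.7 in substate 1 and 387.1 in substate 2. Its scaled log2 signal was 1.05 and 0.49, a difference of -0.55 ± 0.20. The differences of both paralogues were within error of each other, that of ESRP2 minus that of ESRP1 being -0.15 ± 0.29. RBM47 behaved otherwise. Its brighter probe read 3.65 in substate 1 and 3.45 in substate 2 (difference -0.20 ± 0.20), and its dimmer probe read -2.08 and -1.73 (0.35 ± 0.22). The probes of RBM47 thus went opposite ways and lay 0.55 apart, which was as wide or wider in only 7.79% of the 3414 genes with 2 measured probes, whose median gap was 0.15. The mean difference of RBM47 was 0.07 ± 0.15. The difference of ESRP2 minus this mean was -0.78 ± 0.25, an error that leaves out the disagreement of the RBM47 probes. Set against the brighter RBM47 probe alone, ESRP2 was at -0.51 ± 0.29 and ESRP1 at -0.35 ± 0.29.

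GRHL2 was the grainyhead-like factor that differed most. Its brighter probe had an intensity of 347.3 in substate 1 and 140.1 in substate 2, and a scaled log2 signal of 0.15 and -0.97. The difference was -1.12 ± 0.21, and 116 of the 16001 measured genes, GRHL2 included, were as low or lower. The second GRHL2 probe had intensities of 31.8 and 12.3, of which only the former was well above background, and was at least 1.86-fold lower in substate 2. Both probes of GRHL2 therefore pointed the same way. The bound sets the bright signal against the higher of the dim signal and the lowest signal well above background on that array.

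GRHL1 was lower by less. Its brighter probe read 255.6 in substate 1 and 168.2 in substate 2, scaled to -0.30 and -0.71, a difference of -0.42 ± 0.21. Its second probe was barely above background in substate 1 (intensity 16.9) and not well above it in substate 2 (10.2), so no fold is given. The difference of GRHL2 minus that of GRHL1 was -0.71 ± 0.29, beyond that error. GRHL3, known for its role in skin barrier formation and neural tube closure, was dim throughout. The probe measured on both arrays had intensities of 26.3 and 19.3 and a difference of -0.25 ± 0.35. The other GRHL3 probe was well above background on neither array, at 7.38 and 13.9, and has no fold. The direction of GRHL3 was not settled, as its difference became 0.04 under normexp correction and 0.42 without the filter on dim probes. In order of their differences the paralogues ran GRHL2, GRHL1, GRHL3, and the neighbours GRHL1 and GRHL3 did not differ beyond error (-0.16 ± 0.41).

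OVOL1 had the largest difference among the members. Its only probe had an intensity of 173.1 in substate 1 and 57.5 in substate 2, and a scaled log2 signal of -0.86 and -2.26. The difference was -1.40 ± 0.22, and 42 of the 16001 measured genes, OVOL1 included, were as low or lower. The Z-score of the study sets each difference against the mean and SD over all probes, and its lower limit of -2 lay at 2.29-fold. OVOL1 passed it with -2.33, as 1 of the 9 member genes with a probe, beside 6.19% of the 22439 named genes with a probe past either limit. GRHL2 stayed just inside with -1.89 and -1.98 for its probes. It passed the limits under 4 other settings, namely normexp correction and limits from the probes measured on both arrays, on at least 1 array or from the median absolute deviation, where 2 or 4 members passed in place of 1. The share of all named genes past the limits was not computed under these settings, so these counts have no background beside them. OVOL1 and GRHL2 did not differ from each other beyond error (-0.28 ± 0.30).

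**Figure D3:**
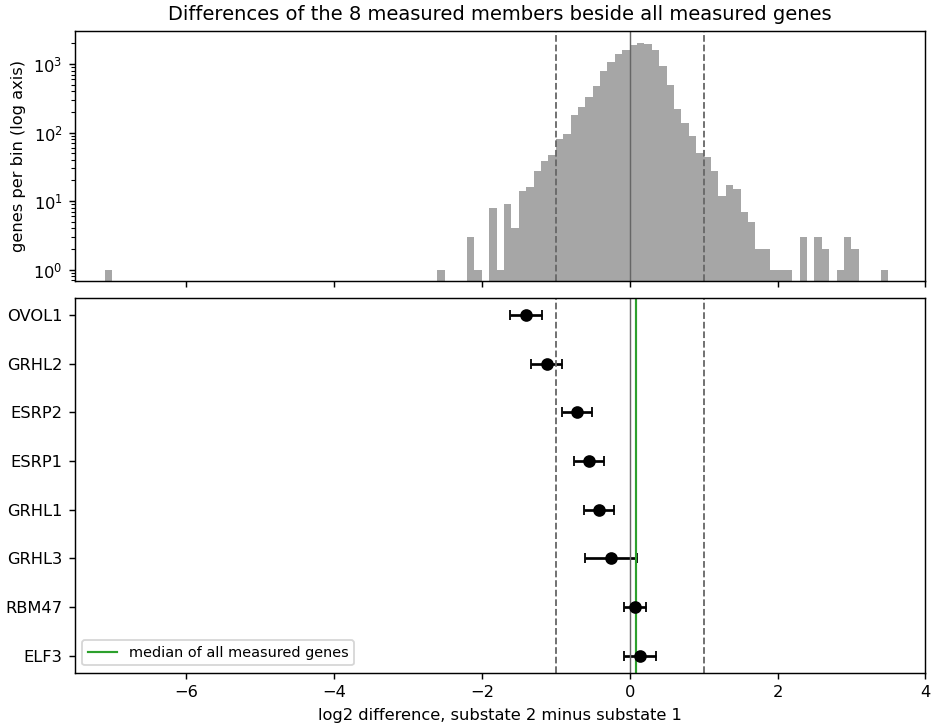
The upper panel gives the number of genes (log axis) in bins of the log2 difference, substate 2 minus substate 1, for the 16001 genes measured on both arrays, and the lower panel the 8 measured members with the scanner error as bars. Dashed lines mark 2-fold, the green line marks the median of all genes at 0.08, and OVOL1 (-1.40) and GRHL2 (-1.12) lie beyond the lower limit.

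Of the ETS factors, ELF3 showed no such lowering and EHF could not be compared. ELF3 had an intensity of 78.5 in substate 1 and 75.9 in substate 2, and a scaled log2 signal of -2.00 and -1.86. Its difference was 0.14 ± 0.22. EHF read 3.57 and 3.63, near background on both arrays, and has no fold. The probes of ELF3 and OVOL1 lay in the same bin of signal, the second, with differences of 0.14 and -1.40.

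Promoter sequence was inspected for the letters that these factors and their opponents bind. RefSeq windows (GRCh38.p14) held 5 of the 10 members, namely GRHL1, GRHL3, RBM47, ELF3 and EHF, with 10 windows, while ESRP1, ESRP2, GRHL2, OVOL1 and OVOL2 had none in the table. The 250 bases before each start were searched on both strands. The E-box CACCTG, the site of ZEB and SNAI repressors, occurred in 3 of the 10 member windows and in 17.5% of all 35116 windows. The GRHL motif AACCGGTT (0.117% of all windows), its looser form AACNNGTT, which includes the former (3% of all windows), and the OVO motif CCGTTA (2.45% of all windows) occurred in 0 of the 10. The following windows are all those of GRHL1, GRHL3 and ELF3, shown because they set the lower GRHL1 beside a pair of genes whose differences were within error. Capitals mark the E-box, on whichever strand.
GRHL1 (chr2:9951443-9951692, + strand): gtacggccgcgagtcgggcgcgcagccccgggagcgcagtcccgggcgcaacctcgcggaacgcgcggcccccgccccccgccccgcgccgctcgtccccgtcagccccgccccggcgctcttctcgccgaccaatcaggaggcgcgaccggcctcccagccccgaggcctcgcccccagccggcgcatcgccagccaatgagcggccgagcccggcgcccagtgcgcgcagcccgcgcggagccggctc
GRHL3, first window (chr1:24319107-24319356, + strand): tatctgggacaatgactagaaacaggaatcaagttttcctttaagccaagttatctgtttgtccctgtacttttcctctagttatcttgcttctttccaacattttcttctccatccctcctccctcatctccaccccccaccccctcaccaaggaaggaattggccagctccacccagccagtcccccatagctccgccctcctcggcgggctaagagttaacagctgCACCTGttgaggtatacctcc
GRHL3, second window (chr1:24322790-24323039, + strand): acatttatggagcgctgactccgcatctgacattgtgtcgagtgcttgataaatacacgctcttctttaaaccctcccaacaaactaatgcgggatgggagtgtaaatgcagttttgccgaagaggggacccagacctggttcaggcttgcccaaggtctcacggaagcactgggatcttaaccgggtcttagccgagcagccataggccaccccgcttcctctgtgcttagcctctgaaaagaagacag
ELF3 (chr1:202010337-202010586, + strand): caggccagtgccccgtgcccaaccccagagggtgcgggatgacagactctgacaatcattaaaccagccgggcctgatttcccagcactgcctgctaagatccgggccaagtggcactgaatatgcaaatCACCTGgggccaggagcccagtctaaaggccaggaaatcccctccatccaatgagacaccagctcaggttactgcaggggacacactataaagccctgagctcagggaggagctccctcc
The GRHL1 window holds 45 CpG dinucleotides, a number reached by 0.589% of all windows, and no CACCTG. The first GRHL3 window holds 3 CpG and an E-box that begins 21 bases before the start, whereas the second holds 10 CpG and no CACCTG, and the ELF3 window holds 4 CpG and an E-box that begins 120 bases before it. The median over all windows was 11 CpG. These matches describe letters only.

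Genes linked to these regulators were described from lists, by counts and medians. The list of GRHL-linked epithelial genes, which GRHL factors are known or thought to act on, had 9 of 10 genes measured on both arrays, and all 9 were lower in substate 2, with a median difference of -0.64 and a range from -1.47 to -0.31. All measured genes had a median of 0.08, with 40.2% below 0. Of these 9 genes, 2 were 2-fold or more lower, beside 1.3% of all named genes with a signal. CDH1 (E-cadherin) read 4.91 in substate 1 and 3.44 in substate 2, a difference of -1.47, and CLDN4, a claudin of tight junctions, read 4.27 and 2.94, a difference of -1.33. DSG1, a desmosomal cadherin of the epidermis, was near background on both arrays.

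The genes whose exons ESRP proteins are known to select showed no common direction at the gene level. All 10 were measured, 4 lower and 6 higher, beside 40.2% lower and 59.8% higher over all measured genes. Their median difference was 0.02, and none passed 2-fold. SLK, a kinase, was the highest at 0.23. Choice of exon itself was not measured, since a probe reads 1 stretch of a transcript. Of 16 other splicing regulators, 15 were measured on both arrays, 3 lower and 12 higher, where 59.8% of all measured genes were higher. The brightest bin of probes had a median difference of 0.16. The median of these regulators was 0.29, and none passed 2-fold. PTBP1, a repressor of neuronal exons, was the highest at 0.56, and MBNL2, a muscleblind factor, the lowest at -0.12.

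Among relatives of the members, 7 of 11 were measured on both arrays, 3 lower and 4 higher. Of all measured genes, 40.2% were lower and 59.8% higher. The relatives had a median of 0.02 and none passed 2-fold. The highest was the ETS factor ELF4 (0.61) and the lowest TFCP2L1 (-0.35), a grainyhead-related factor of naive pluripotent cells. RBM46, a relative of RBM47, was measured on the substate 1 array alone, with a bound of at least 1.42-fold lower in substate 2. The other epithelial transcription factors were mostly near background, with 3 of 11 measured on both arrays. TFAP2C (AP-2 gamma), a factor of trophectoderm and of surface ectoderm, read -1.86 in substate 1 and -3.71 in substate 2, a difference of -1.86. FOXA2, a factor of endoderm, was 0.77 higher. Under normexp correction TFAP2C no longer passed 2-fold, with -0.65, whereas CDH1 (-1.51), CLDN4 (-1.38) and ZEB1 (1.63) still did.

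Among the transition repressors, ZEB1 and ZEB2 were far higher in substate 2. Of 6 genes 5 were measured on both arrays, all 5 above 0, with a median of 0.52, where 59.8% of all measured genes were above 0. By difference or bound 2 of the 6 were 2-fold or more higher, beside 1.41% of all named genes with a signal. The probes of ZEB1, a repressor of CDH1, differed by 2.41 and 2.67, and ZEB2 was at least 5.39-fold higher by its brightest probe. TWIST2 differed by 0.57 and TWIST1, whose value is the list median, by 0.52. In substate 1 and substate 2, TWIST1 read -4.24 and -3.72 and SNAI2 read -3.98 and -3.96. These values were near the lowest signals well above background, -4.44 and -4.20. The second probes of TWIST1 and TWIST2 were well above background on neither array. The SNAI factors were close to all measured genes, with 0.20 for SNAI1 and 0.02 for SNAI2, the latter below the median of 0.08. The members and these repressors were read on the same pair of arrays, so their directions are a single observation of these libraries.

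**Figure D4:**
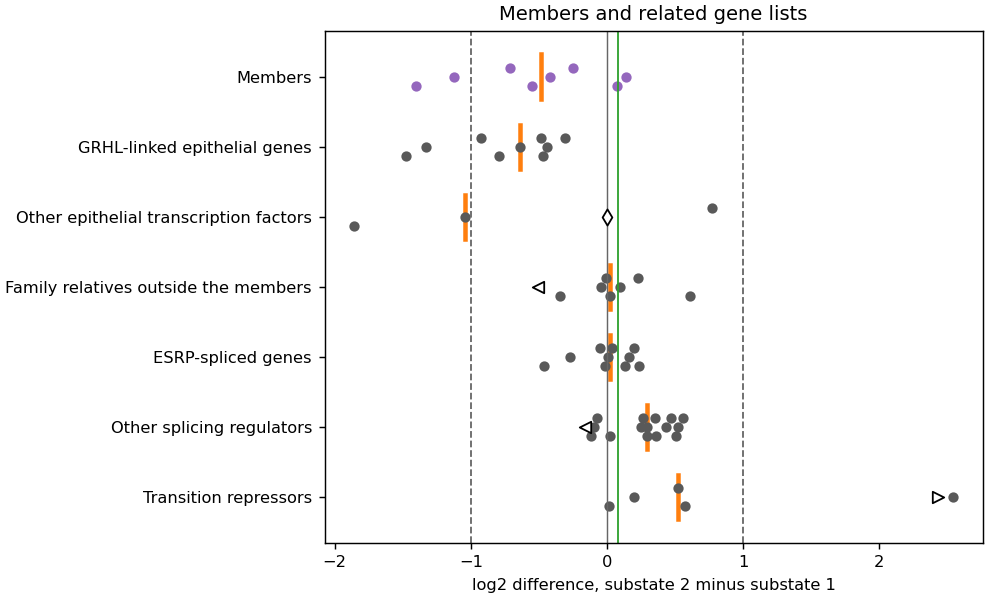
Log2 difference, substate 2 minus substate 1 (x axis), of each gene measured on both arrays (points) in the members and in 6 lists (y axis), with the list median in orange, the median of all genes in green, 2-fold as dashed lines, and open triangles or a diamond for genes measured on one array, drawn at their bound. The measured GRHL-linked genes (median -0.64) all lie left of 0 and the measured transition repressors (median 0.52) all right of it.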

How the data were processed

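Messenger RNA of 2 samples was read on single-colour Agilent arrays. The authors deposited scanner files with a processed intensity per spot, made per the file headers by Feature Extraction version 11.5.1.1 (background subtraction, detrending), with the array annotated on hg19. Their deposited matrix of log2 values (GeneSpring GX, 75th percentile shift) matched the values computed here, apart from a constant per array, at 100% of the probes (tolerance 0.01).

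Intensities under 1 were set to 1 (0 spots), outlier spots were left out, log2 values were averaged per probe, and the 75th percentile of the array was subtracted. The gene value was the mean over its unsaturated probes whose signal cleared the background call on each array. A gene without such a probe was given a bound. Probes were named by unversioned RefSeq accession (31104 of 58201 matched). The rule for named genes took all members and, of each list, genes past 2-fold, or else the highest and lowest. Members and lists were chosen with earlier results of these data known, and some list genes are not reported here. The calculation was checked on simulated data. Tools were Python 3.11.15, pandas 2.3.3 and, for normexp, quantile and loess alternatives, limma 3.58.1. Normexp used median spot signals and an offset of 50. The number of arrays limits the precision.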

Additional observations from a re-analysis of the deposited data

How the results depend on the processing

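No paired analysis was possible because there was only 1 array for each substate, none of which could be left out. Centring on the median, removing the floor, keeping outlier spots and the deposited series matrix changed no count of members, and every difference stayed within 0.04 of its value. Removing the floor had nothing to act on.

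Normexp correction, which adds 50 to each intensity and so shrinks differences of dim probes by construction, left 0 members 2-fold lower, a member median of -0.39 in place of -0.49, and 4 members past the Z-score limits (ESRP1, ESRP2, GRHL2, OVOL1) in place of 1. It gave -0.84 for OVOL1, -0.85 for GRHL2, -0.27 for GRHL1 and 0.04 for GRHL3, and a median of 0.31 for transition repressors. TFAP2C (-0.65) lay inside 2-fold with it. Quantile and loess scaling moved ESRP2 to -0.80 and -0.81, the GRHL-linked median to -0.75 and -0.76, and the median of other splicing regulators to 0.22 and 0.21. Z-score limits from probes measured on both arrays, or on at least 1 array, took in 2 members (GRHL2, OVOL1), and those from the median absolute deviation 4 (ESRP2, GRHL2, GRHL3, OVOL1), of which GRHL3 passed by a dim probe, well above background on neither array, that read higher in substate 2. The Z-score already ran over all probes, so an unfiltered version was the same. For the other Z-score settings, normexp included, the share of all named genes past the limits was not computed. Without a filter on dim probes GRHL3 became 0.42 and the GRHL-linked median -0.56. The brightest probe alone gave -0.20 for RBM47 and -0.77 for the GRHL-linked median. A limit of 1.5-fold gave 3 members lower (OVOL1, GRHL2, ESRP2) and 0 higher. The shares of all named genes past 1.5-fold, or past 2-fold under another processing, were not computed, so these counts cannot be set against them.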
